A study of Mus musculus with 24 samples.

Results

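The genes described here are 9 members of the TGF-beta pathway: the ligands Tgfb1, Tgfb2 and Tgfb3, the latent TGF-beta binding protein Ltbp2, the receptors Tgfbr1 and Tgfbr2, and the intracellular proteins Smad3, Smad6 and Smad7. They were taken by name from the non-control probes of a mouse expression array, with the brightest probe standing for a gene, and make up 9 of 23503 genes tested. All 9 passed the filter on dim probes, and the probe used for each was well above background on all 24 arrays.

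TGF-beta ligands are secreted in a latent form that is stored in the extracellular matrix, in part through latent TGF-beta binding proteins and fibrillin microfibrils, and are released by proteases, integrins and thrombospondin. The active ligand binds the type II receptor Tgfbr2, which recruits and phosphorylates the type I receptor Tgfbr1, and Tgfbr1 in turn phosphorylates Smad2 and Smad3, which enter the nucleus with Smad4. Smad6 and Smad7 are inhibitory Smads that are themselves induced by the pathway. In the aortic wall the pathway is known for its part in matrix production and in smooth muscle differentiation, and mutations of its receptors, of SMAD3 and of TGFB2 and TGFB3 cause heritable aortic aneurysm and dissection in humans.

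Total RNA of mouse aorta was measured on 24 one-colour arrays, in 8 groups of 3 biological replicates. IL-17 knockout mice and wild-type mice, both on the C57BL/6 strain, drank plain water or 1% NaCl, the salt being given before and throughout 3 days of continuous infusion with BAPN and angiotensin II or with vehicle. Each genotype therefore had a group with salt and infusion, a group with infusion on plain water, a group with salt and vehicle, and a control group with vehicle on plain water. The labels do not name the deleted IL-17 gene, the age of the mice or any pooling of animals, and all groups ate normal chow. The extraction protocol speaks of cells, while the tissue is given as aorta. BAPN, beta-aminopropionitrile, blocks lysyl oxidase and with it the cross-linking of collagen and elastin, and angiotensin II is a peptide that constricts vessels and raises blood pressure.

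The 75th percentile of the processed signal lay between 383 and 769 on knockout arrays and between 269 and 459 on wild-type arrays. The probes for Il17a and Il17f were well above background on 0 of 24 arrays, wild-type arrays included, so they do not check the genotype labels. Of the smooth muscle markers, 6 of 6 were well above background on all arrays. The same held for 6 of 6 endothelial and 6 of 6 macrophage markers, so this does not single out the aorta. The arrays came from 4 slides, and each slide held 1 genotype, so genotype and slide cannot be told apart. Infused knockout array 3 on plain water stood apart from arrays 1 and 2 of its group and lay on another slide. Its mean over 5 markers of dividing cells was 0.55, against 2.95 and 3.27 on arrays 1 and 2, and its mean over 6 smooth muscle markers was 7.05, against 6.04 and 6.06. The corresponding wild-type array 3 had a dividing-cell mean of 1.26, against 2.73 and 2.54. In whole tissue, fewer cells of a type and less RNA per cell cannot be told apart.

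The infusion was compared with vehicle 4 times, in each genotype on salt and on plain water. Tgfb1 and Ltbp2 rose and Tgfbr2 fell in all 4 comparisons. Tgfb2 rose on salt in the wild type and Tgfb3 fell on salt in the knockout, while Tgfbr1, Smad3, Smad6 and Smad7 did not pass the threshold of an adjusted p under 0.05 in any of the 4. By this count 4 of 9 members passed in the knockout on salt, where 25.2% of all genes did, and 3 of 9 in the knockout on water, where 30.6% did. In the wild type 4 of 9 passed on salt, against 32.9% of all genes, and 3 of 9 on water, against 25.9%. The 2 members that were higher in all 4 comparisons stand beside 6.55% of all genes, and the 1 that was lower in all 4 beside 5.54%. The median log2 change of the 9 members was -0.22 and -0.12 in the knockout on salt and on water, and 0.14 and 0.06 in the wild type, with medians of all genes between -0.06 and -0.02. Infused and vehicle arrays did not overlap for 6 and 3 members in the knockout on salt and on water, where 51% and 37.8% of all genes did not. The same held for 5 and 5 members in the wild type, against 54.5% and 35% of all genes.

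**Figure D1:**
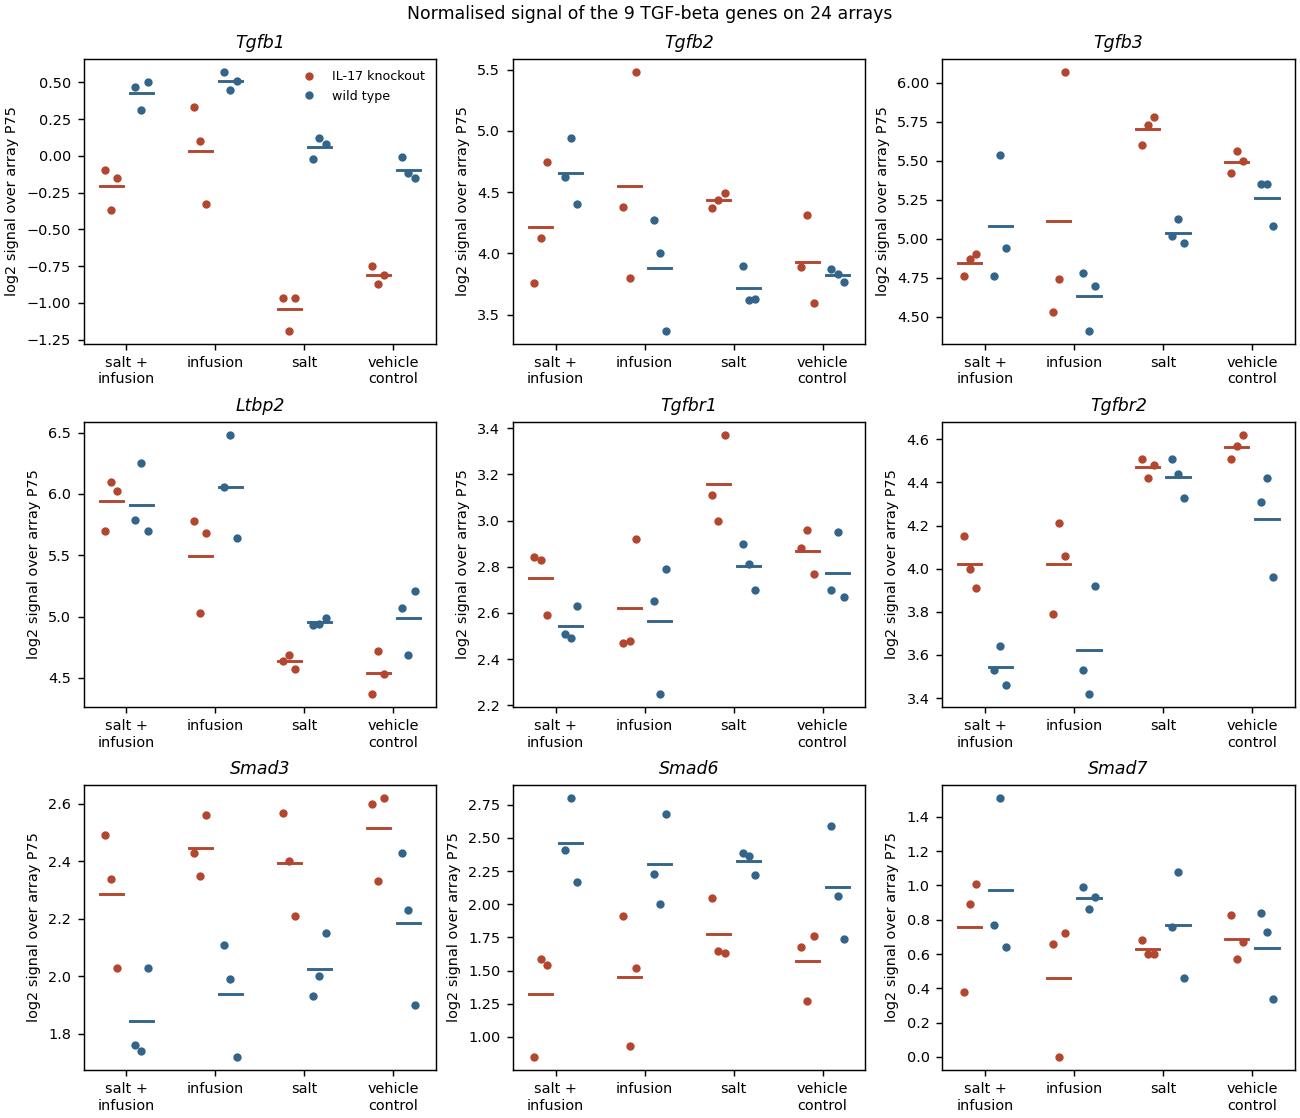
Normalised signal of each of the 9 genes, as log2 over the array's 75th percentile (P75, vertical axes), by treatment, with the IL-17 knockout left of the wild type. Each point is 1 array and each bar the mean of 3, and the panels show Tgfb1 and Ltbp2 higher and Tgfbr2 lower on every infused array than on any array of the matching vehicle group.

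Tgfb1 encodes the most widely expressed ligand. Its probe (mm9 chr7:26489877-26489936, plus strand) and the probe of Tgfb2 (mm9 chr1:188449333-188449392, minus strand) both lie in the stretch that encodes the C-terminal end of the mature ligand, which the 3 ligands share in large part. They are shown because the 2 ligands gave different results and their targets are relatives. Set against each other without gaps at a shift of 19 bases, they overlapped over 41 bases, of which 28 (68.3%) were identical and are in capitals.
Tgfb1 probe: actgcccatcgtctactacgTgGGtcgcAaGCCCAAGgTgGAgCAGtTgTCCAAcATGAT
Tgfb2 probe: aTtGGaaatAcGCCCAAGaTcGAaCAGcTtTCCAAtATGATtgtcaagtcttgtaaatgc

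On salt, Tgfb1 stood at -0.10, -0.37 and -0.15 on infused knockout arrays, against -0.97, -1.19 and -0.97 on knockout vehicle arrays (log2 over the array's 75th percentile, as are all levels below). On plain water it stood at 0.33, 0.10 and -0.33 on infused knockout arrays, against -0.75, -0.87 and -0.81 on knockout controls. All infused arrays were above all vehicle arrays in both. The changes were 0.83 ± 0.13 and 0.84 ± 0.13 on the log2 scale (SE, n = 3 arrays per group), which is 1.78-fold and 1.79-fold higher, with limma adjusted p = 0.000261 and 0.00025. Wild-type levels on salt were 0.47, 0.31 and 0.50 with infusion, against -0.02, 0.12 and 0.08 with vehicle. On plain water they were 0.57, 0.45 and 0.51 with infusion, against -0.01, -0.12 and -0.15 in controls. The wild-type groups did not overlap either, and the arrays of each lay close together. The wild-type changes were 0.37 ± 0.13 on salt (1.29-fold, limma adjusted p = 0.0379) and 0.60 ± 0.13 on water (1.52-fold, limma adjusted p = 0.00325). The call on salt in the wild type was lost without any one of vehicle arrays 1, 2 or 3 or of infused arrays 1 or 3, with changes of 0.33, 0.40, 0.38, 0.35 and 0.33 (limma adjusted p 0.0609 to 0.12).

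Tgfb2 encodes a ligand that is prominent in vessel and heart development. Its level in the wild type on salt was 4.62, 4.94 and 4.40 on infused arrays, against 3.90, 3.62 and 3.63 on vehicle arrays, and every infused array was the higher. It rose there by 0.94 ± 0.33 on the log2 scale, 1.92-fold (limma adjusted p = 0.0344), and a second probe gave the same 0.94 without passing the threshold over all probes (limma adjusted p = 0.0751). The change lay between 0.79 and 1.06 when any one of the 6 arrays was left out, and did not pass in any of the 6 cases (limma adjusted p 0.0515 to 0.0985). The slide that held 5 of these arrays lacks infused array 3 only. A limma fit on those 5 alone gave the same 1.06 as leaving out that array, with another estimate of spread (adjusted p = 0.0117). Wild-type levels on water overlapped, at 4.27, 4.0 and 3.37 with infusion, against 3.87, 3.83 and 3.77 in controls. The knockout gave no single picture. On salt its levels were 3.76, 4.13 and 4.75 with infusion, against 4.37, 4.44 and 4.49 with vehicle (change -0.22, limma adjusted p = 0.653). On water they were 4.38, 3.80 and 5.48 with infusion, against 3.89, 4.31 and 3.6 in controls (change 0.62, limma adjusted p = 0.167). The highest value was that of array 3, which stood apart, and the change was 0.15 without it. Without infused array 2 it was 0.99 and passed (limma adjusted p = 0.0289).

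Tgfb3 encodes the third ligand. Its level in the knockout on salt was 4.76, 4.87 and 4.90 with infusion, against 5.6, 5.73 and 5.78 with vehicle, with no overlap. It fell by 0.86 ± 0.27 on the log2 scale, 1.81-fold (limma adjusted p = 0.0268), and the call was lost with any one of the 6 arrays left out, at changes between -0.91 and -0.82 (adjusted p 0.0524 to 0.0786). Knockout levels on water were 4.53, 4.74 and 6.07 with infusion, against 5.42, 5.56 and 5.50 in controls. Infused arrays 1 and 2 lay below all controls and array 3 above them. The change was -0.38 ± 0.27 (limma adjusted p = 0.319) with all 3 infused arrays, and -0.86 without array 3 (limma adjusted p = 0.00102). Wild-type levels on salt overlapped, at 4.76, 5.54 and 4.94 with infusion, against 5.02, 5.13 and 4.97 with vehicle (change 0.04). On water they did not overlap, at 4.78, 4.41 and 4.70 with infusion, against 5.35, 5.35 and 5.08 in controls, and the change of -0.63 ± 0.27 missed the threshold (limma adjusted p = 0.0948).

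Ltbp2 encodes a matrix protein of the latent TGF-beta binding family that binds fibrillin-1 and, unlike its relatives, does not bind the latent ligand. In the knockout on salt it stood at 5.70, 6.10 and 6.02 with infusion, against 4.64, 4.69 and 4.57 with vehicle. On plain water it stood at 5.78, 5.03 and 5.68 with infusion, against 4.37, 4.72 and 4.53 in controls. Every infused array was above every vehicle array, with infused array 2 on water the closest. Wild-type levels on salt were 5.79, 6.25 and 5.70 with infusion, against 4.93, 4.94 and 4.99 with vehicle. On water they were 6.06, 6.48 and 5.64 with infusion, against 5.07, 4.69 and 5.21 in controls. These groups did not overlap, and the wild-type vehicle arrays on salt were the most alike. Ltbp2 rose 2.47-fold and 1.94-fold in the knockout on salt and on water, and 1.94-fold and 2.10-fold in the wild type. Its log2 changes were 1.30, 0.96, 0.96 and 1.07 in that order, each ± 0.22 (SE, n = 3 arrays per group), with limma adjusted p = 0.000432, 0.00314, 0.00318 and 0.00198.

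Tgfbr2 encodes the type II receptor, which binds the ligand first. In the knockout on salt it stood at 4.15, 4.0 and 3.91 with infusion, against 4.51, 4.42 and 4.48 with vehicle. On plain water it stood at 3.79, 4.21 and 4.06 with infusion, against 4.51, 4.57 and 4.62 in controls. All infused arrays were below all vehicle arrays. Wild-type levels on salt were 3.53, 3.64 and 3.46 with infusion, against 4.51, 4.44 and 4.33 with vehicle. On water they were 3.53, 3.42 and 3.92 with infusion, against 4.31, 4.42 and 3.96 in controls. Infused array 3 and control array 3 on water lay close together without overlapping. Tgfbr2 fell 1.37-fold and 1.46-fold in the knockout on salt and on water, and 1.84-fold and 1.53-fold in the wild type. The log2 changes were -0.45, -0.55, -0.88 and -0.61 in that order, each ± 0.14, with limma adjusted p = 0.0248, 0.00683, 0.00026 and 0.00443. On salt in the knockout the call was lost without vehicle arrays 1 or 3 or infused arrays 2 or 3 (-0.43, -0.44, -0.44 and -0.39, adjusted p 0.0591 to 0.0986), and on water without infused array 1 (-0.43, adjusted p = 0.0537).

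Tgfbr1 encodes the type I receptor kinase. It did not pass the threshold in any of the 4 comparisons, with log2 changes of -0.40 and -0.25 in the knockout on salt and on water and -0.26 and -0.21 in the wild type (limma adjusted p 0.056 to 0.321). In the knockout on salt its arrays did not overlap, at 2.84, 2.83 and 2.59 with infusion, against 3.11, 3.00 and 3.37 with vehicle. Without infused array 3, its change in the knockout on water was -0.40 and passed (limma adjusted p = 0.0427). Smad3, the Smad that transmits the ligand signal, had changes between -0.25 and -0.07, and 0 of the 4 passed (limma adjusted p 0.263 to 0.794). Smad6, which restrains mainly the BMP branch, had changes of -0.45 and -0.12 in the knockout on salt and on water, against 0.14 and 0.18 in the wild type, and none passed (limma adjusted p 0.235 to 0.793). Smad7, which targets the type I receptor for degradation, had 0.13 and -0.23 in the knockout and 0.21 and 0.29 in the wild type (limma adjusted p 0.387 to 0.708). For Smad7 in the knockout on water the 95% confidence interval of the change ran from -0.71 to 0.26, so a moderate fall or a small rise was within it.

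**Figure D2:**
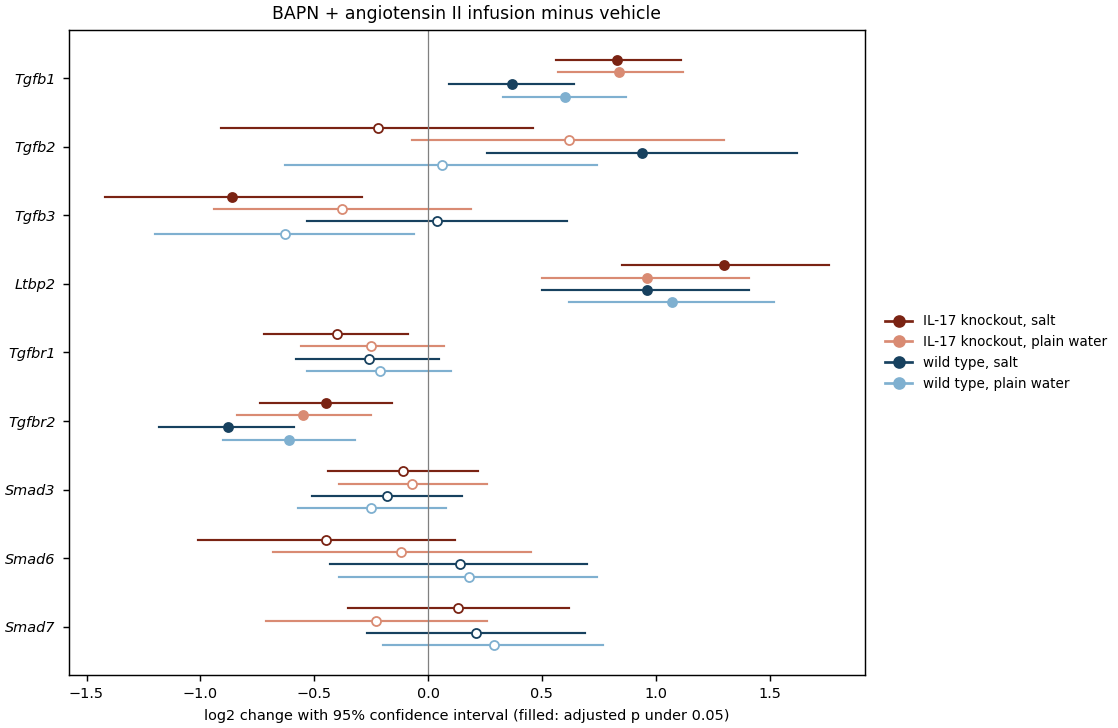
Log2 change with infusion of BAPN and angiotensin II against vehicle (horizontal axis) for the 9 genes, in the knockout on salt and on water and in the wild type on salt and on water. Points are fitted changes, lines 95% confidence intervals, and filled points have an adjusted p under 0.05, which Tgfb1, Ltbp2 and Tgfbr2 reached in all 4 comparisons.

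The infusion comparisons differed in how slides fell. Only the infused knockout group on water and the infused wild-type group on salt were split over slides, each by its array 3. The slide that held 2 infused and 3 vehicle arrays of such a comparison lacks infused array 3 only. Within it, Tgfbr2 changed by -0.84 in the wild type on salt (limma adjusted p = 0.00902) and by -0.56 in the knockout on water (adjusted p = 0.0455). Ltbp2 changed by 1.07 (adjusted p = 0.0123) and 0.86 (adjusted p = 0.0548), and Tgfb1 by 0.33 (adjusted p = 0.0745) and 1.02 (adjusted p = 0.00515). The other 2 comparisons crossed slides. A fixed slide block takes the slide difference from array 3 of the split group, against its arrays 1 and 2. Slide and that array cannot be told apart. With slide as a fixed block, Tgfb1, Ltbp2 and Tgfbr2 had changes of 0.50, 1.39 and -0.49 in the wild type on water and did not pass (limma adjusted p = 0.183, 0.0939 and 0.342). With slide as a random block the values there were 0.54, 1.25 and -0.54, and Ltbp2 alone of the 3 passed (limma adjusted p = 0.0764, 0.0362 and 0.139). In the knockout on salt the fixed block gave 1.38 for Tgfb1, 1.03 for Ltbp2 and -2.29 for Tgfb3, which passed (limma adjusted p = 4.68e-05, 0.048 and 2.89e-05). Tgfbr2 was -0.51 and did not pass (adjusted p = 0.131), and Tgfb2 (-1.61) and Tgfbr1 (-0.85) passed (limma adjusted p = 0.0115 and 0.0136).

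Marker genes of other cells moved with the infusion. Of 5 measured markers of dividing cells, 5 were higher in each of the 4 comparisons, with mean levels of 2.12 to 3.01 on infused knockout arrays on salt, against -2.71 to -2.47 with vehicle, and of 1.38 to 2.73 on infused wild-type arrays on salt, against -2.69 to -1.81. Of 6 macrophage markers, 5 rose in each knockout comparison, and in the wild type 5 rose on salt and 6 on water. Their mean level was 3.22 to 3.27 on infused knockout arrays on salt, against 1.89 to 2.15 with vehicle, and 2.13 to 2.82 on infused wild-type arrays on salt, against 1.14 to 1.53. Of 6 neutrophil markers 2 rose in each comparison. Of 6 fibroblast markers, 4 and 2 fell in the knockout on salt and on water, and 3 and 2 in the wild type. Their mean level in the knockout on salt was 3.79, 3.86 and 1.40 with infusion, with array 3 far below the others, against 4.49 to 4.58 with vehicle. The fibroblast marker Lum was well above background on 23 of 24 arrays and the other 5 on all 24. Whether a single marker set the low mean of array 3 was not tested. Of 6 smooth muscle markers, 1 and 3 fell in the knockout and 0 and 1 in the wild type, and their mean level in the knockout on salt was 6.19 to 6.61 with infusion, against 6.94 to 7.11 with vehicle. Their part in the changes of the 9 genes was not tested.

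The promoters of the 3 genes that passed in all 4 infusion comparisons, and of Smad6, are given here from RefSeq (GRCm38.p6), from 250 bases before to 10 bases after the start of the gene. The table held promoters for 7 of the 9 genes, without Tgfb3 and Smad7. Capitals mark the Smad box CAGAC, which reads GTCTG on the other strand, and the palindrome GTCTAGAC, to which Smad3 and Smad4 are known to bind. The Smad box cannot lie within the palindrome. It occurred in 44.0% of 32851 promoter windows of this length, and the palindrome in 0.177%.
Tgfb1, chr7:25686752-25687011, plus strand: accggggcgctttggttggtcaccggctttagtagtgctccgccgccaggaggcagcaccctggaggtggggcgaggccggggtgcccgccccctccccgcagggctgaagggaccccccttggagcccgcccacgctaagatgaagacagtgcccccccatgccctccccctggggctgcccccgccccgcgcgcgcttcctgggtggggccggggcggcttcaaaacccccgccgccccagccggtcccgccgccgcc
Ltbp2, chr12:84876482-84876741, minus strand: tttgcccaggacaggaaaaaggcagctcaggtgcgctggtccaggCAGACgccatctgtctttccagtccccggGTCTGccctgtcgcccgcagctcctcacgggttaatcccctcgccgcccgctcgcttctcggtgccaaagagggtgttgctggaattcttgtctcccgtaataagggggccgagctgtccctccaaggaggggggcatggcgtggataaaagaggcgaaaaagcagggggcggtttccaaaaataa
Tgfbr2, chr9:116175354-116175613, minus strand: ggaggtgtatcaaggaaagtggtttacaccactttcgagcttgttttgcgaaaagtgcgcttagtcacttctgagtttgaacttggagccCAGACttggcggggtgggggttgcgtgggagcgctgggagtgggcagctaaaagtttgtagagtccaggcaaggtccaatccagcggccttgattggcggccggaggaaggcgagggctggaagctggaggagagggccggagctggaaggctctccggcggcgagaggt
Smad6, chr9:64022050-64022309, minus strand: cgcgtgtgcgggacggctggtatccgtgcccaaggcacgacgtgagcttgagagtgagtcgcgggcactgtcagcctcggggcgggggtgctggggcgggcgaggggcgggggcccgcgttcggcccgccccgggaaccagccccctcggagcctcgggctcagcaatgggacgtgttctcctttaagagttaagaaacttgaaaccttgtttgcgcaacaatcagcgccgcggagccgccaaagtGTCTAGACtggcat

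Ltbp2 held 2 Smad boxes and Tgfbr2 held 1, while these letters were not in the Tgfb1 window. Of the windows not printed, that of Tgfb2 held 2 Smad boxes, those of Tgfbr1 held 0 and 1, and that of Smad3 held 0. Smad6 held 1 palindrome, whose first base lay at position -4 from the start of the gene, and 0 Smad boxes. Its window was the only one of the 8 with the palindrome, and Smad6 passed in no infusion comparison. The AP-1 motif TGANTCA, on either strand, was in none of the 8 windows of these 7 genes and in 7.03% of all windows. A match describes the sequence and does not show that a factor was bound.

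Salt was compared with plain water without and with infusion. None of the 9 genes and none of all 23503 passed the threshold in any of the 4 comparisons (limma, 0 called). At an unadjusted p under 0.05 there were 0 members in both comparisons without infusion, where 713 of all genes in the knockout and 495 in the wild type reached it. With infusion there were 0 members in the knockout (1064 of all genes) and 1 in the wild type (1355 of all genes). That member was Tgfb2, which stood at 4.62, 4.94 and 4.40 with salt and infusion, against 4.27, 4.0 and 3.37 with infusion alone. The groups did not overlap, and the change was 0.77 ± 0.33 (unadjusted p = 0.0284, limma adjusted p = 0.846). The comparison crossed slides: the salt arrays at 4.62 and 4.94 lay on another slide than the one at 4.40 and the arrays with infusion alone. A second probe of Tgfb2 changed by 0.60 (limma unadjusted p = 0.142). In knockout mice without infusion, 5 of 9 members had salt arrays that did not overlap the controls, where 13.4% of all genes did not. They were Tgfb1 and Tgfbr2, with log2 changes of -0.23 and -0.10, and Tgfb2, Tgfb3 and Tgfbr1, with 0.50, 0.21 and 0.29. Their limma adjusted p was 1, and their unadjusted p lay between 0.0704 and 0.488. For the wild type without infusion 0 of 9 did not overlap, against 11.9% of all genes. With infusion 0 of 9 did not overlap in the knockout (6.93% of all genes), and 1 of 9, Tgfb2, in the wild type (8.05%).

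The knockout was compared with the wild type under each treatment. Tgfb1 was lower in the knockout in all 4 comparisons. Among infused mice, Smad6 was also lower and Tgfbr2 and Smad3, read from their brightest probes, higher in the knockout, with and without salt, and Ltbp2 was lower on plain water. With salt and infusion 4 of 9 members passed, where 28.5% of all genes did, and with infusion alone 5 of 9, where 46.2% did. With salt alone 1 of 9 passed, against 39.3% of all genes, and in vehicle controls 1 of 9, against 37.1%. Of the 9 members, 2 were lower in the knockout with salt and infusion, 3 with infusion, 1 with salt and 1 in controls, where 17.9%, 27.2%, 23.5% and 22.8% of all genes were. Knockout and wild-type arrays did not overlap for 3, 4, 7 and 3 members in the same order, against 45.4%, 41.4%, 65.5% and 59.2% of all genes. With slide as a random block, Tgfb1 stayed past the threshold with salt alone (-1.28, limma adjusted p = 0.000432) and in controls (-0.90, adjusted p = 0.00628). It did not pass with salt and infusion (-0.49, limma adjusted p = 0.0918) or with infusion (-0.49, adjusted p = 0.0623), and 0 of the 9 members passed in these 2 comparisons. Slide and genotype cannot be told apart in any of the 4, which use the same 24 arrays as the infusion comparisons.

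Tgfb1 stood between -0.37 and -0.10 on knockout arrays with salt and infusion, against 0.31 to 0.50 in the wild type, and the change was -0.64 ± 0.13, 1.55-fold lower (limma adjusted p = 0.00158). With infusion alone it stood between -0.33 and 0.33, against 0.45 to 0.57 in the wild type, and was 1.39-fold lower (adjusted p = 0.00667). No knockout array reached the wild-type range in either. With salt alone the levels were -1.19 to -0.97 in the knockout and -0.02 to 0.12 in the wild type, 2.14-fold lower (limma adjusted p = 4.48e-06). Among vehicle controls they were -0.87 to -0.75 in the knockout and -0.15 to -0.01 in the wild type, 1.64-fold lower (adjusted p = 0.000358). Of the 8 groups, the 2 lowest for Tgfb1 were the knockout groups without infusion, and the 2 highest the infused wild-type groups. The difference with infusion alone was -0.29 without knockout array 3 (limma adjusted p = 0.033), and also -0.29 without array 3 of both genotypes, when it did not pass (adjusted p = 0.0574).

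Smad6 stood at 0.85, 1.59 and 1.54 on knockout arrays with salt and infusion, against 2.41, 2.80 and 2.17 in the wild type, 2.19-fold lower (limma adjusted p = 0.00455). With infusion alone it stood at 1.91, 0.93 and 1.52, against 2.23, 2.0 and 2.68, 1.80-fold lower (adjusted p = 0.0153). The groups did not overlap. The call with infusion alone was lost without knockout array 2 (-0.59, limma adjusted p = 0.103) and without wild-type array 3 (-0.66, adjusted p = 0.0857). Without infusion the changes were -0.55 on salt and -0.56 in controls and did not pass (limma adjusted p = 0.114 and 0.112).

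Tgfbr2 stood at 4.15, 4.0 and 3.91 on knockout arrays with salt and infusion, against 3.53, 3.64 and 3.46 in the wild type, with no overlap, and was 1.39-fold higher (limma adjusted p = 0.0161). With infusion alone it stood at 3.79, 4.21 and 4.06 in the knockout, against 3.53, 3.42 and 3.92 in the wild type, and was 1.32-fold higher with overlapping arrays (limma adjusted p = 0.0252). The first call was lost without knockout array 1 (0.41, limma adjusted p = 0.0788), and the second without knockout array 2 (0.30, adjusted p = 0.122), wild-type array 1 (0.35, adjusted p = 0.0731) or wild-type array 2 (0.30, adjusted p = 0.12).

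Smad3 stood at 2.49, 2.34 and 2.03 on knockout arrays with salt and infusion, against 1.76, 1.74 and 2.03 in the wild type, 1.36-fold higher (limma adjusted p = 0.0415). With infusion alone it stood at 2.43, 2.35 and 2.56 in the knockout, against 2.11, 1.99 and 1.72 in the wild type, 1.42-fold higher (limma adjusted p = 0.0129). The arrays overlapped with salt and infusion and did not overlap with infusion alone. The first call was lost without knockout arrays 1 or 2 or wild-type arrays 1 or 2 (0.34, 0.41, 0.40 and 0.39, limma adjusted p 0.102 to 0.183), and the second without wild-type array 3 (0.40, adjusted p = 0.073). Smad7 did not pass between genotypes, and its 24 values lay between 0.00 and 1.51 with every neighbouring pair of groups overlapping. With infusion alone its knockout arrays, at 0.00 to 0.72, did not overlap the wild-type arrays, at 0.86 to 0.99 (change -0.47, limma adjusted p = 0.107).

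Ltbp2 was 1.48-fold lower in the knockout with infusion alone, at 5.78, 5.03 and 5.68 in the knockout, against 6.06, 6.48 and 5.64 in the wild type (limma adjusted p = 0.0401). The arrays overlapped, and the call was lost without knockout array 2 (-0.33, adjusted p = 0.243), wild-type array 1 (-0.56, adjusted p = 0.0715) or wild-type array 2 (-0.35, adjusted p = 0.21). With salt and infusion the change was 0.03 (limma adjusted p = 0.941).

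**Figure D3:**
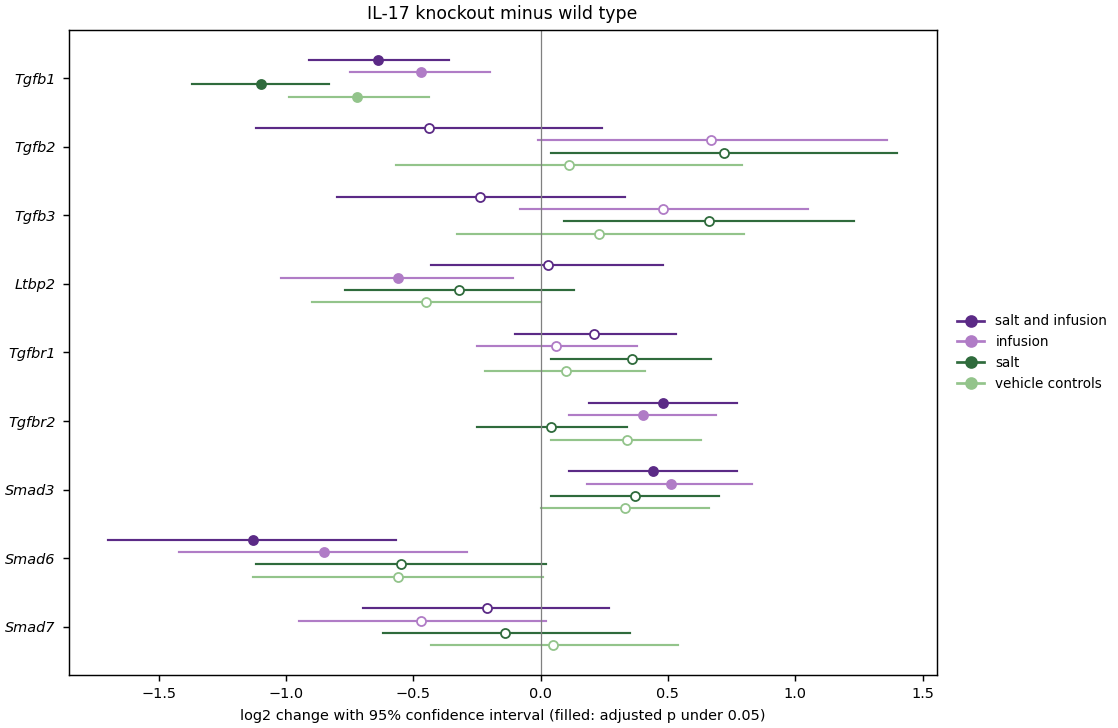
Log2 change of the IL-17 knockout against the wild type (horizontal axis) for the 9 genes, with salt and infusion, infusion, salt, and in vehicle controls. Points are fitted changes, lines 95% confidence intervals, and filled points have an adjusted p under 0.05. Tgfb1 was lower in all 4, and each slide held 1 genotype.

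For Tgfbr2 and Smad3 the sign of the change between genotypes differed between probes, though the upstream probe of Smad3 was dim and did not pass. The brightest probe of Tgfbr2 (mm9 chr9:115997155-115997214, minus strand) was higher in the knockout by 0.48 with salt and infusion and by 0.40 with infusion (limma adjusted p = 0.0161 and 0.0252), whereas a probe 2341 genomic bases upstream had changes of -0.49 (limma adjusted p = 0.176 over all probes) and -0.82 (adjusted p = 0.0177). The brightest probe of Smad3 (mm9 chr9:63494574-63494633, minus strand) was higher in the knockout by 0.44 and 0.51 (adjusted p = 0.0415 and 0.0129), and a probe 2918 bases upstream had changes of -0.43 and -0.61 that did not pass. That upstream Smad3 probe had a mean level of -3.94 and was well above background on 22 of 24 arrays, so its sizes of change are uncertain. For Tgfbr1 the brightest probe had changes between 0.06 and 0.36, and 0 of 4 passed. A Tgfbr1 probe 2790 bases upstream was lower in the knockout in all 4 comparisons, by 1.25 with salt and infusion, 0.99 with infusion, 0.68 with salt and 0.91 in controls. A probe 31903 genomic bases upstream was lower by 1.29 with infusion. Its changes of -0.51 with salt and infusion, -0.17 with salt and -0.61 in controls did not pass. A probe 53622 bases upstream was well above background on 19 of 24 arrays, so its size of change is not given. In these 3 genes the brightest probe was the one nearest the 3′ end, and the upstream probes were dimmer. Both probes of Tgfb2, whose brighter probe lies upstream, had changes of the same sign in all 4. Whether RNA quality or labelling differed between slides was not tested.

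For the infusion, the 2 probes of Tgfbr2 had changes of 1 sign, and of the 16 changes of the 4 Tgfbr1 probes 15 were negative, the exception being the dim probe farthest upstream in the wild type on water. The upstream Tgfbr2 probe changed by -0.73 and -0.67 in the knockout on salt and on water and by -0.67 and -0.12 in the wild type, and 0 of the 4 passed. The Tgfbr1 probe 2790 bases upstream fell by 1.04 in the knockout on salt (past the threshold over all probes) and had changes of -0.48 in the knockout on water, -0.46 in the wild type on salt and -0.40 on water, which did not pass. The upstream Smad3 probe, dim as said above, had changes between -0.02 and 0.56 and none passed.

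**Figure D4:**
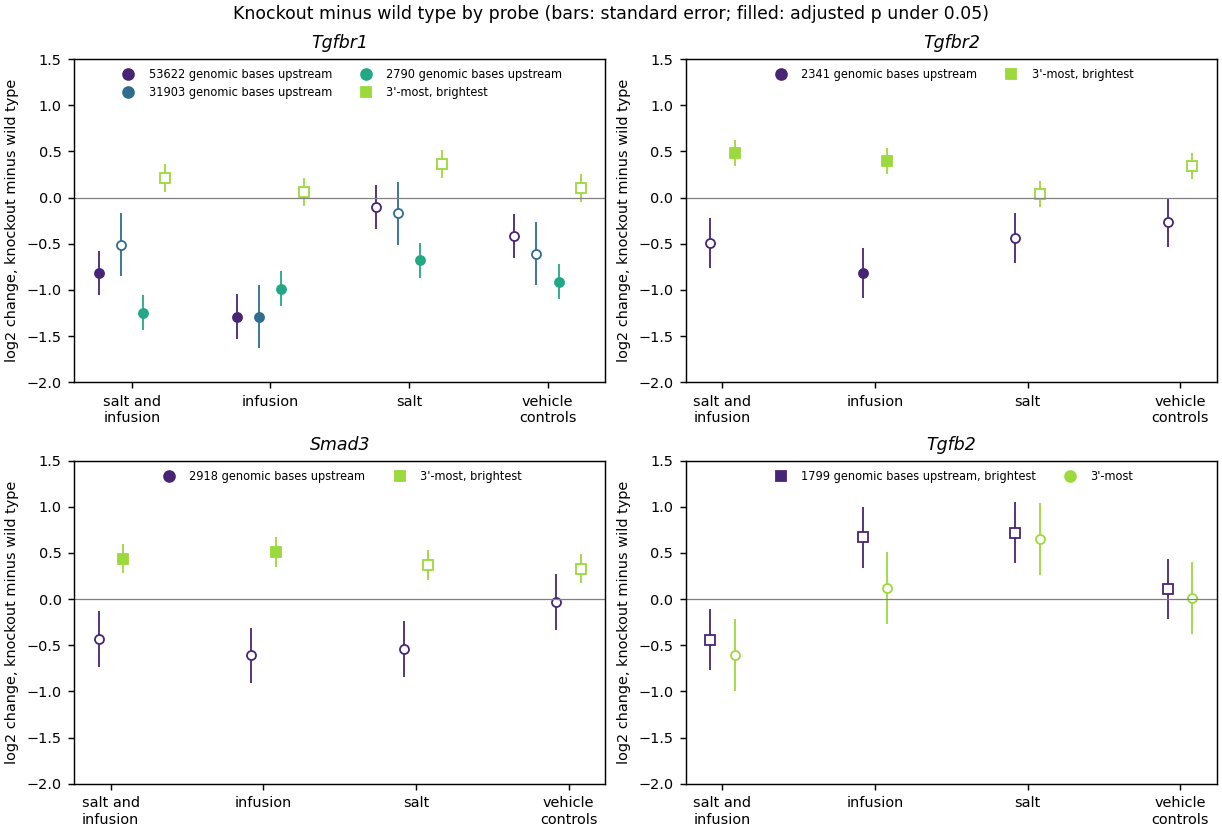
Log2 change of the knockout against the wild type (vertical axes) for every probe of the 4 genes with several probes, under each treatment. Squares mark the brightest probe, bars are standard errors and filled symbols passed the threshold over all probes. The Tgfbr1 probe farthest upstream was well above background on 19 of 24 arrays, and the upstream Smad3 probe on 22 of 24. For Tgfbr1, Tgfbr2 and Smad3 the brightest probe lies at or above 0 and the upstream probes below it.

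Whether the infusion response differed between genotypes, or between salt and water, was tested directly. None of the 9 genes passed in any of the 4 tests (limma, 0 called). On salt, 17 of all genes (0.0723%) passed, and 4 members had an unadjusted p under 0.05. The response in the knockout minus that in the wild type on salt was -1.16 ± 0.46 for Tgfb2 (unadjusted p = 0.0212, limma adjusted p = 0.466) and -0.90 ± 0.38 for Tgfb3 (unadjusted p = 0.0301, adjusted p = 0.497). It was 0.47 for Tgfb1 and 0.43 for Tgfbr2 (limma adjusted p = 0.466 and 0.536). In the other 3 tests 0 members reached an unadjusted p under 0.05. With slide as a fixed block, the differences on salt for Tgfb1, Tgfb2 and Tgfb3 were 1.04, -2.68 and -2.40 and passed (limma adjusted p = 0.00875, 0.00822 and 0.00146). That block rests on array 3 of infused knockout mice on water, which stood apart, and array 3 of infused wild-type mice on salt. Slide and these arrays cannot be told apart.

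The rest of the pathway was read from a list of 68 other genes, of which 65 were measured, without Itgb6, Bambi and Mstn. With infusion, 12 rose and 19 fell in the knockout on salt, where 13.4% of all genes rose and 11.8% fell, and 15 rose and 18 fell on water, where 14.4% and 16.2% of all genes did. In the wild type 20 rose and 14 fell on salt, against 16.3% and 16.6% of all genes, and 17 rose and 9 fell on water, against 12.2% and 13.7%. The list's median log2 change was -0.06 and -0.11 in the knockout and 0.12 and 0.04 in the wild type, in the same order. In all 4 comparisons 10 genes rose and 5 fell. In the wild type on water and the knockout on salt the infused and vehicle arrays lay on different slides, and a fixed slide block left 0 and 13 of these 15 past the threshold there, a random block 5 and 14. Of the genes named below, Acvr2a, Cdkn1a, Gdf15, Nox4, Dcn, Eng, Inhbb, Tsc22d1 and Grem1 lost a call in 1 or more infusion comparisons when 1 array was left out (limma adjusted p 0.0503 to 0.162).

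Among the storage and activation genes, Thbs1, the matrix protein thrombospondin-1 that can release the latent ligand, had the largest change of the list. It stood at 4.55, 4.57 and 4.92 with infusion in the knockout on salt, against 2.42, 1.70 and 2.31 with vehicle. In the wild type on salt it stood at 4.74, 5.07 and 5.44, against 0.59, 0.78 and 0.40. It was 5.80-fold and 7.71-fold higher in the knockout on salt and on water, and 22.5-fold and 9.12-fold higher in the wild type (limma adjusted p = 0.00137, 0.000391, 2.04e-05 and 0.000293). On water in the wild type infused array 3 stood at 2.63, against 5.02 and 5.10 on arrays 1 and 2, and without it Thbs1 was 16-fold higher. Fbn1, which encodes fibrillin-1, rose 1.67-fold to 1.96-fold over the 4 comparisons. Ltbp4, the latent TGF-beta binding protein that guides elastic fibre assembly, fell 2.28-fold to 2.6-fold. Dcn, the proteoglycan decorin, fell 1.42-fold to 2.12-fold.

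Of 11 other receptors, 7 and 4 fell in the knockout on salt and on water, and 5 and 3 in the wild type, and 1 rose in each, where 11.8%, 16.2%, 16.6% and 13.7% of all genes fell. Tgfbr3, the co-receptor betaglycan that presents ligand to Tgfbr2, stood at 1.53, 1.91 and 1.46 with infusion in the knockout on salt, against 3.17, 3.01 and 2.95 with vehicle. In the wild type on salt it stood at 0.86, 1.38 and 0.97, against 2.74, 2.76 and 2.6. The groups were far apart, and the gene fell 2.47-fold to 3.08-fold over the 4 comparisons. Acvr2a, an activin type II receptor, fell 1.31-fold to 1.48-fold. The receptor that rose was Eng, the endothelial co-receptor endoglin, by 1.40-fold to 1.86-fold. Of 6 endothelial markers 0 rose in either knockout comparison, and 2 and 1 in the wild type on salt and on water. Bmpr1a, a BMP type I receptor, fell 3.00-fold in the knockout on salt (limma adjusted p = 0.00976) and did not pass elsewhere. Infused array 2 stood at 0.61, against 3.17 and 2.99 on arrays 1 and 3, and without it the fall was 1.69-fold, while a fixed slide block ended the call (limma adjusted p = 0.0712).

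Of 19 target genes, 5 rose and 2 fell in the knockout on salt and 6 rose and 3 fell on water, with 8 and 4 in the wild type on salt and 9 and 2 on water. The shares of all genes that rose and fell were those given for the whole list, so that 2 of 19 lower in the knockout on salt is near the 11.8% of all genes. Fn1, encoding fibronectin, rose 1.45-fold to 1.95-fold, Snai1, a transcriptional repressor, 2.33-fold to 4.80-fold, and Cdkn1a, the cell cycle inhibitor p21, 2.10-fold to 3.33-fold. Nox4, an NADPH oxidase of smooth muscle, went the other way and fell 1.90-fold to 2.23-fold. Tsc22d1, a TGF-beta-stimulated gene, fell 1.83-fold in the knockout on water and 2.41-fold and 1.91-fold in the wild type on salt and on water.

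Among activins, BMPs and their antagonists, Gdf6 was 3.79-fold and 4.18-fold higher in the knockout on salt and on water, and 19.2-fold and 5.69-fold higher in the wild type. Without infused array 3 it was 10.1-fold higher in the wild type on water. Its vehicle signal in the wild type on salt was well above background on 2 of 3 arrays, and with normexp background correction the 2 wild-type values were 5.94-fold and 2.95-fold. Gdf15, a stress-induced member of the family, rose 2.15-fold to 5.12-fold, although its change in the wild type on water, the lowest of the 4, was -0.09 with slide as a fixed block. The increase of Fst, the activin antagonist follistatin, was 2.59-fold to 4.34-fold. Inhbb, an activin subunit, fell 2.70-fold and 2.89-fold in the knockout and 3.74-fold in the wild type on water. In the knockout on water infused array 3 stood at 1.12, against -1.47 and -1.48 on arrays 1 and 2, and without it the fall was 5.28-fold. Grem1, a BMP antagonist, fell 2.93-fold in the knockout on salt, and 1.52-fold with normexp.

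**Figure D5:**
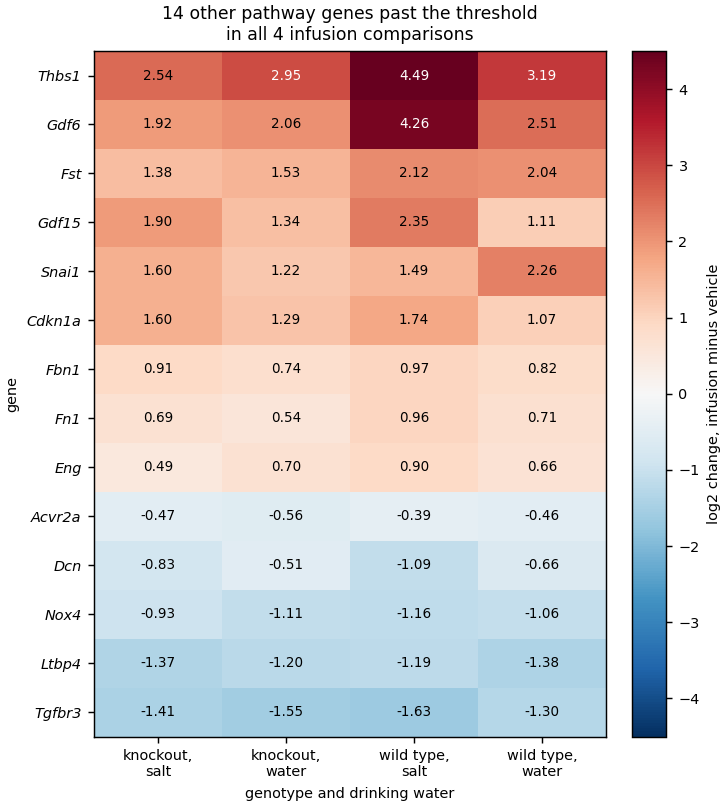
Log2 change with infusion against vehicle for 14 of the 15 other pathway genes that passed in all 4 comparisons with 1 sign, by genotype and drinking water (colour and printed value). Thbs1 and Gdf6 have their largest values in the wild type on salt, and Tgfbr3 and Ltbp4 are the lowest rows.

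Between genotypes, 8 of the 65 genes were higher and 8 lower in the knockout with salt and infusion, 7 and 9 with infusion, 16 and 7 with salt, and 15 and 5 in controls. The shares of all genes higher were 10.6%, 18.9%, 15.7% and 14.3%, and those lower 17.9%, 27.2%, 23.5% and 22.8%, in the same order. Nog, the BMP antagonist noggin, was lower in the knockout in all 4 comparisons, by 2.75-fold with salt and infusion, where its signal was well above background on 3 of 3 knockout arrays. In the other 3 comparisons it was so on 1 or 2 of 3 knockout arrays, and with normexp the 4 values lay between 1.22-fold and 1.59-fold. Smad5, a Smad of the BMP branch, was 1.49-fold to 1.56-fold higher in all 4 (limma adjusted p 2.5e-05 to 7.77e-05), at 3.77, 3.83 and 3.81 in knockout controls, against 3.22, 3.27 and 2.99 in wild-type controls. Smurf1, a ubiquitin ligase that targets Smads and receptors, was 1.89-fold lower with salt and infusion (limma adjusted p = 2.01e-05). Its knockout levels were also the lower in controls, at -1.19, -1.22 and -1.12, against -0.44, -0.40 and -0.68. With salt alone they were -0.90, -1.03 and -1.08, against -0.50, -0.43 and -0.54. With infusion alone the arrays overlapped, at -0.96, -1.0 and -0.76, against -0.50, -0.57 and -0.85. Of 6 fibroblast markers, 3 or 4 were higher in the knockout under each treatment, with means of 4.27 to 4.55 in knockout controls, against 3.15 to 3.44 in wild-type controls. Of 6 smooth muscle markers, 2 or 3 were lower, with means of 6.99 to 7.15 in knockout controls, against 7.36 to 7.61. Their part in these differences was not tested. With salt against water, 0 of 65 passed in each of the 4 comparisons (limma), and 5 and 7 had an unadjusted p under 0.05 under infusion in the knockout and in the wild type.

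Over the 8 groups, the range of group means was widest for Tgfb1, at 1.55 on the log2 scale, and Ltbp2, at 1.52. It was narrowest for Smad7, at 0.51, followed by Tgfbr1, at 0.62. In the order of group means, 3 of 7 neighbouring pairs did not overlap for Tgfb1 and 3 for Tgfb3, 1 each for Ltbp2 and Tgfbr1, and 0 for Tgfb2 and Tgfbr2. Smad3, Smad6 and Smad7 had 0. Most neighbours in these orders therefore had overlapping arrays. Neighbours are the groups closest in mean, so this says nothing about groups further apart in the order. The 4 highest group means of Ltbp2 and the 4 lowest of Tgfbr2 were those of the infused groups. Of 15876 other named genes, those with the most similar pattern over the 24 arrays (by root-mean-square difference of centred log2 values) were Shkbp1 and Tspan4 for Tgfb1, at 0.20 each, and Lmna and Plod2 for Ltbp2, at 0.23 and 0.24. Tgfb2 was nearest to 2310057M21Rik and Pdlim5, at 0.18 and 0.24, and Tgfb3 to Prkci and Wdfy3, at 0.17 and 0.18. Tgfbr1 was nearest to Plekha1 and Rnf166, at 0.13 and 0.14, and Tgfbr2 to Ankmy2 and AW549877, at 0.12 each. Among the Smads, Smad3 was nearest to Zbtb25 and Rmi1, at 0.14 each, Smad6 to Elk4 and Dzip1l, at 0.26 and 0.27, and Smad7 to Hip1 and Arhgef5, at 0.20 each. The standard deviation of the 9 genes themselves over the arrays ran from 0.24 for Tgfbr1 to 0.63 for Ltbp2.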

How the data were processed

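Spot intensities of 24 one-colour (Cy3) arrays were used as deposited. Per the file headers, Agilent Feature Extraction 10.7.1.1 made the processed signal intensity by background subtraction and multiplicative detrending, while the submitters' processing notes give version 9.5.1.1. Each array's log2 processed signal was set to its own 75th percentile, flagged outlier spots were left out and repeat spots averaged. Probes had to exceed background clearly on every array (3) of some group, and each gene was read from its brightest probe (33374 of 55681 probes kept, 23503 genes). Changes were tested with limma 3.58.1 in R 4.3.3 (lmFit and eBayes, 8 group means over 24 arrays) with Benjamini-Hochberg adjustment over all genes at 0.05. Probes were tested likewise over all probes. The fit was also run on simulated arrays with independent noise and no slide effect, which cannot check results that depend on slide. The members and gene lists were chosen with earlier results of these data known. Other pathway genes were named where they passed in all 4 infusion comparisons with 1 sign, were among the 3 largest changes each way in 1 of them, or had 1 of the 2 smallest p in another comparison. The values of 1 such gene are not reported here, though it is in the counts. Alternatives were the authors' deposited quantile-normalised values, normexp background correction (offset 50), quantile normalization, the mean of a gene's probes, no dim filter, only the compared groups, slide as a block, and each array left out. The number of arrays limits the precision. Figures were drawn with matplotlib 3.10.9.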

Additional observations from a re-analysis of the deposited data

How the results depend on the processing

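The number of members past the threshold changed most with the slide settings and with which arrays shared the estimate of spread. A fixed slide block rests on array 3 of the infused groups split over slides, so slide and those arrays cannot be told apart. With only the compared groups it was 1 in the knockout on water and 0 in the wild type on water for the infusion, and between genotypes 0 with infusion and 7 with salt. With slide as a fixed block the infusion count was 5 in the knockout on water and 0 in the wild type on water. That block also gave 1 member for salt under infusion in the knockout, 3 for the difference between genotypes on salt, and 1 for the difference between salt and water in the knockout. With slide as a random block the count was 1 for the infusion in the wild type on water and 0 between genotypes with infusion, with and without salt. Without array 3 of both infused groups on water it was 5 for the infusion in the knockout on water and 2 between genotypes with infusion. The authors' values gave 2 between genotypes with salt and infusion and 3 with infusion, quantile normalization 2 and 3, and normexp 2 with salt and infusion. No filter on dim probes gave 2 for the infusion in the wild type on salt, and a prior variance with a trend gave 2 between genotypes with salt. Leaving out 1 array at a time gave 2 to 3 members for the infusion in the knockout on salt, 2 to 5 on water, 2 to 3 in the wild type on salt and 3 each time on water. Between genotypes it gave 2 to 4 with salt and infusion, 3 to 6 with infusion, 1 each time with salt and 1 to 2 in controls.

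The mean of a gene's probes turned the direction between genotypes of Smad3 (-0.05), Tgfbr1 (-0.88) and Tgfbr2 (-0.21) with infusion, and of Tgfbr1 (-0.59) and Tgfbr2 (-0.01) with salt and infusion. It also turned Smad5 with infusion in the knockout on water (0.10), and slide as a fixed block turned Gdf15 with infusion in the wild type on water (-0.09). Beyond these, 2622 of the recomputed changes of the 9 genes kept their side of the threshold, of which 172, none past it, changed sign, while 90 lost and 37 gained a call. Over all genes, the calls with infusion in the wild type on water were 6087, against 1233 with only the compared groups, 263 and 771 with slide as a fixed and a random block, and 9421 without array 3 of both groups. In the knockout on water they were 7195, against 2413 with only the compared groups. Between genotypes with infusion there were 10851, against 3867 with only the compared groups and 4872 with a random block, and in controls 8720 against 1969. With salt alone there were 9229 against 2051, and with salt and infusion 6702 against 2345. For salt under infusion in the knockout 0 became 264 with slide as a fixed block, 399 without array 3 of both groups and 92 without infused knockout array 3 alone. For the difference on salt 17 became 1982 with slide as a fixed block, 77 with only the compared groups and 3 with normexp, and the fixed block gave 46 for the difference on water and 151 for that in the knockout. Leaving out 1 array lowered the infusion calls to as few as 3612 of 5920 in the knockout on salt, 3965 on water, 4477 of 7735 in the wild type on salt and 2674 on water, and those between genotypes with salt and infusion to 4123. It gave 63 for the difference on water without infused knockout array 3, 15 for salt among infused wild-type mice without array 3 of the salt group, and 4 to 10 for the difference on salt in the 10 cases that moved it past 1.5 times. Of the calls between genotypes in controls 38.6% were higher in the knockout, against 50.8% on the authors' values and with quantile normalization and 51.9% with normexp. With salt and infusion 37.3% were, against 50.5% with normexp and 47.5% with quantile normalization, and for the difference on salt 88.2%, against 72.7%, 75% and 100% on the authors' values, with quantile normalization and with normexp. The cause of these shifts was not tested.

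Replicate numbers did not pair the samples: over 84 pairs with the same number the correlation of deviations ran from -0.449 to 0.453 (median -0.023). With the replicate number as a block, the count of members between genotypes with infusion was 4 in place of 5. The wild-type salt group is numbered 1 to 3 here after its source names.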
